A study of Mus musculus with 4 samples.

Results

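The RAF-ERK signalling route was followed with 8 genes, which were measured in 4 libraries of B16F10 mouse melanoma RNA: the kinases Braf, Map2k1 and Mapk3, the ERK phosphatases Dusp4 and Dusp6, the inhibitors Spry2 and Spry4, and the transcription factor Etv4. They were the 8 rows, of 24527 in the table of read counts, whose gene symbol stood on a list of these names, and all 8 were found. The route carries growth signals from receptor tyrosine kinases at the cell surface through RAS to the RAF kinases, which phosphorylate MEK, which phosphorylates ERK. Active ERK switches on genes that restrain it in turn, among them dual-specificity phosphatases, which strip the phosphates from ERK, and Sprouty proteins, which act near the receptor and RAS, so that the transcripts of such feedback genes are widely used as a readout of the route's output. In melanoma it is the growth route most often switched on by mutation.

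B16F10 is a melanoma line from C57BL/6 mice, and NIH/3T3 is a mouse fibroblast line. The conditions were B16F10 cells alone in 2D (2D monoculture), B16F10 cells in 2D with NIH/3T3 fibroblasts (2D co-culture), hanging-drop spheroids of B16F10 and NIH/3T3 cells (spheroid), and subcutaneous tumors grown from B16F10 cells in both flanks of mice (tumor). All 4 carry the genotype label WT and no drug is named for any of them. According to the methods, the B16F10 cells carried a green fluorescent protein and were separated by flow cytometry, which is also described for the tumor, although the label of the tumor library speaks of snap-frozen material. Each condition is 1 library: a difference between conditions therefore has no replicate check, no test across conditions was made, and every interval given is a 95% interval that covers counting error only. Reads made by PCR without molecular identifiers are not independent molecules, so even the counting error is understated.

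The libraries held between 118896900 and 150028663 reads counted on genes. Levels are given as CPM, that is reads per gene brought to a common library total, and scaled with TMM factors, which align the bulk of genes between libraries and lay between 0.908 and 1.16. In these bulk samples fewer cells of a type and less RNA per cell cannot be told apart. Markers of pigment cells were present in all 4 libraries, with a summed level of 8 genes between 11420 and 20122 CPM. The tumor library also held markers of host tissue: all 10 myeloid, all 8 endothelial and all 5 skeletal muscle markers and 8 of 9 fibroblast markers were higher there than in 2D monoculture, led by Lyz2, Pecam1, Acta1 and Col3a1, and the summed levels of these lists were 1580, 290, 4599 and 3194 CPM against 30.4, 0.540, 3.28 and 19.7 CPM. Fibroblast markers summed to 683 CPM in the 2D co-culture, with 5 of 9 higher than in 2D monoculture, and to 37.4 CPM in the spheroid, with 3 of 9 higher.

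The members lie on separate chromosomes of the mouse genome, build GRCm38: Braf at chr6:39603231-39725658, Map2k1 at chr9:64185769-64253605, Mapk3 at chr7:126759626-126765816, Dusp4 at chr8:34807610-34819894, Dusp6 at chr10:99263231-99267489, Spry2 at chr14:105891947-105896819 and Etv4 at chr11:101769747-101785310. Mapk3, Dusp4 and Dusp6 are on the plus strand and the others on the minus strand. Exons of Braf share 146 bases with those of Ndufb2 on the opposite strand, and the library kit does not mark strand, so reads in that overlap cannot be assigned. The exons of the other 7 members overlap no other annotated gene.

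Promoter windows, from 250 bases before to 50 bases after the start site, were taken from RefSeq (GRCm38.p6) for Braf, Map2k1, Dusp6 and Spry2, and searched on both strands for the cyclic AMP response element TGACGTCA, the core CCGGAA that ETS factors such as Etv4 recognise, and the AP-1 letters TGANTCA, in which N is any base. These patterns were searched because ETS and AP-1 factors are end points of ERK signalling. The Dusp6 sequence before the start site is shown because Dusp6 was more than 2-fold above 2D monoculture in each of the other 3 libraries, and the others because they hold a match, which stands in capitals.
Dusp6, chr10:99262981-99263230, plus strand: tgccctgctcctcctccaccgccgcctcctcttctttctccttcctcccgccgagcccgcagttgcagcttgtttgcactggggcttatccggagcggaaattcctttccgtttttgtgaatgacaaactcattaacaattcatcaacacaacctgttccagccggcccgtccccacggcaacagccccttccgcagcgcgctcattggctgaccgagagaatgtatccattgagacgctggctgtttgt
Braf, chr6:39725535-39725564, minus strand: gaTGACGTCAcgcacccaggTGACGTCAcg
Map2k1, chr9:64253788-64253817, minus strand: agcagagggcgcCCGGAAagcctcccttta
Spry2, chr14:105896770-105896799, minus strand: gaggtcatctatcCCGGAAtccgggagggt
Braf holds TGACGTCA at 2 places, starting 99 and 81 bases before the start site of its RefSeq window. That site lies 195 bases inside the gene as placed above, so both matches are within the Braf interval, whereas the start sites of the other 3 windows are at the gene ends. TGACGTCA is found at least once in 1.79% of all 32851 windows. CCGGAA was found once in Map2k1, 200 bases before the start site, and once in Spry2, 33 bases after it, and 14.9% of all windows hold it. None of the 3 patterns is in the Dusp6 window, and TGANTCA, which 7.81% of windows hold, is in none of the 4. The shorter letters GGAA, which were not searched, do occur in the Dusp6 sequence printed above. A match describes letters and not a site that any factor was seen to occupy.

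Against 2D monoculture, the differences over 2-fold were mostly those of feedback genes. Dusp6 and Spry4 were over 2-fold higher in each of the other libraries (2D co-culture, spheroid and tumor), Etv4 was over 2-fold higher in 2D co-culture, Mapk3 in the spheroid, and Dusp4 was over 2-fold lower in the tumor. Braf was below its 2D monoculture level in all 3 libraries by less than 2-fold, an order that did not hold for the spheroid after the correction for GC content described with Braf. The plot of levels by library shows the 8 patterns side by side.

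**Figure D1:**
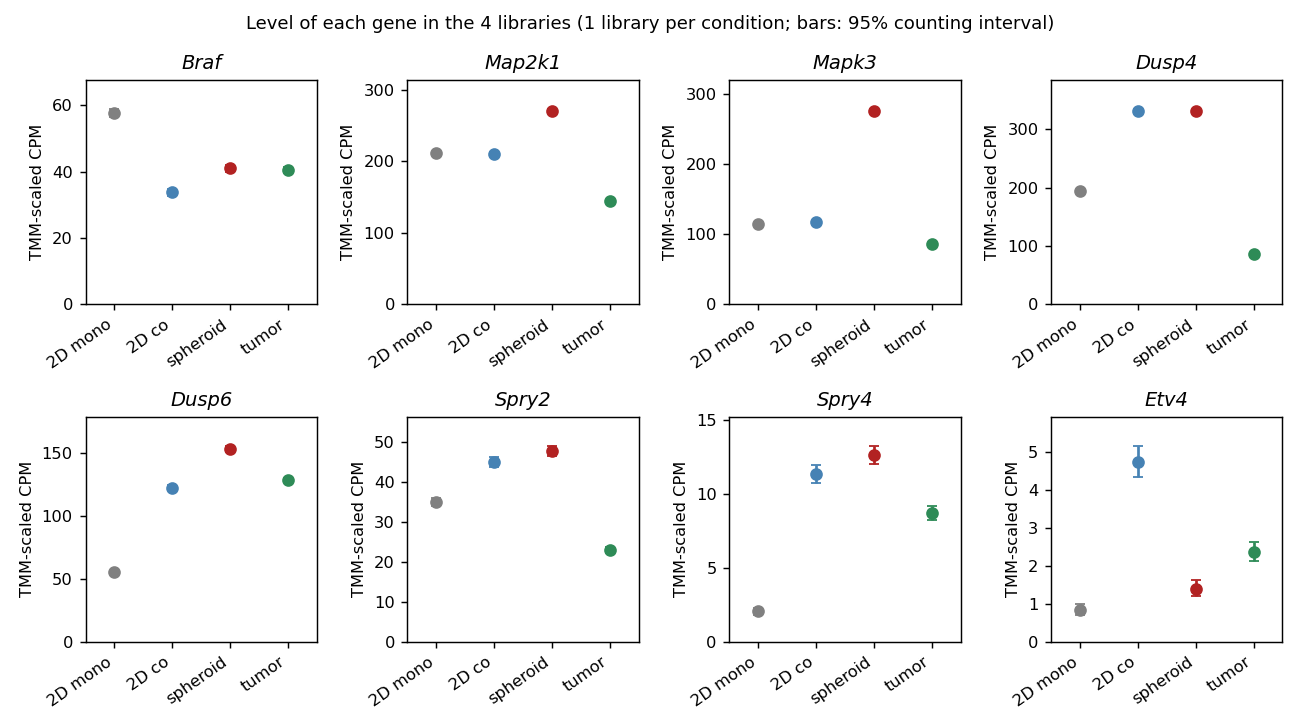
TMM-scaled CPM (vertical axes, each from 0) of the 8 genes in the 2D monoculture, 2D co-culture, spheroid and tumor libraries, 1 point per library, with bars for the 95% counting interval. Dusp6 and Spry4 are lowest in 2D monoculture, Mapk3 is highest in the spheroid, and Dusp4 and Spry2 are lowest in the tumor.

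Braf encodes the RAF kinase most often mutated in human melanoma. Its level was 57.6 CPM in 2D monoculture, 33.8 in 2D co-culture, 41.0 in the spheroid and 40.4 in the tumor. The highest value was that of 2D monoculture and the lowest that of 2D co-culture, a 1.70-fold difference. Spheroid and tumor could not be told apart within counting error, with a log2 ratio of 0.02 (-0.03 to 0.07). Braf was among the genes that the study itself selected on these libraries for a like level in spheroid and tumor, so this closeness is a description and not independent evidence. It also moved with a correction. Ratios between these libraries went with the GC content of genes, and after the median ratio of genes of like GC content and length was removed, the log2 ratio of Braf came to 1.40 for spheroid over tumor, turned from -0.49 to 0.67 for spheroid over 2D monoculture and went from -0.77 to -0.05 for 2D co-culture over 2D monoculture.

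Map2k1 encodes MEK1, the kinase that phosphorylates ERK. It was measured at 211 CPM in 2D monoculture, 210 in 2D co-culture, 270 in the spheroid and 144 in the tumor. The 2D libraries were within counting error of each other, with a log2 ratio of -0.01 (-0.03 to 0.02), the spheroid was highest and the tumor lowest. The whole span of the gene was 1.87-fold, and no comparison took it past 2-fold.

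Mapk3 encodes ERK1, an ERK kinase. Its level was 115 CPM in 2D monoculture, 117 in 2D co-culture, 276 in the spheroid and 86.5 in the tumor. The spheroid stood apart from the other 3 libraries, with 2.40-fold (2.36 to 2.45) the level of 2D monoculture and 3.19-fold (3.13 to 3.26) that of the tumor. The 2D libraries again did not differ beyond counting error. Mapk3 has a GC content of 57.6%, and the correction for GC content and length left its log2 ratio of spheroid over 2D monoculture at 0.66, down from 1.26, and that of spheroid over tumor at 0.65, down from 1.67.

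Ratios between members of 1 kinase family within a library need no scaling between libraries. Araf, which encodes another RAF kinase, was at 130 CPM in 2D monoculture, 127 in 2D co-culture, 212 in the spheroid and 73.0 in the tumor. Its share of the reads on the 3 RAF genes was 41.6%, 44.6%, 61.1% and 35.9% in that order, and the share of Braf was 18.4%, 11.8%, 11.8% and 19.9%. These shares are not corrected for GC content and length. With that correction the log2 change of Braf relative to Araf from 2D monoculture to spheroid went from -1.20 to -0.32. The change to 2D co-culture went from -0.74 to -0.01, and that to tumor from 0.32 to 0.53. Braf took the smallest share of the family in every library, by reads as well as per kilobase of exon, the scale on which levels of different genes can be set beside each other, where it made up at most 8.81%. Map2k1 and Map2k2, which encode MEK1 and MEK2, were near parity in the cultures, with Map2k1 at 50.3%, 49.6% and 53.0% of the pair's reads in 2D monoculture, 2D co-culture and spheroid, and at 62.4% (61.9 to 62.9) in the tumor. That higher share went with a lower Map2k2, which was at 86.9 CPM in the tumor and between 208 and 240 in the cultures. After the correction for GC content and length the change of Map2k1 relative to Map2k2 from 2D monoculture to tumor went from 0.71 to -0.01 on the log2 scale, and that from 2D monoculture to spheroid from 0.15 to 0.79, so that the corrected shift was in the spheroid and not in the tumor.

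**Figure D2:**
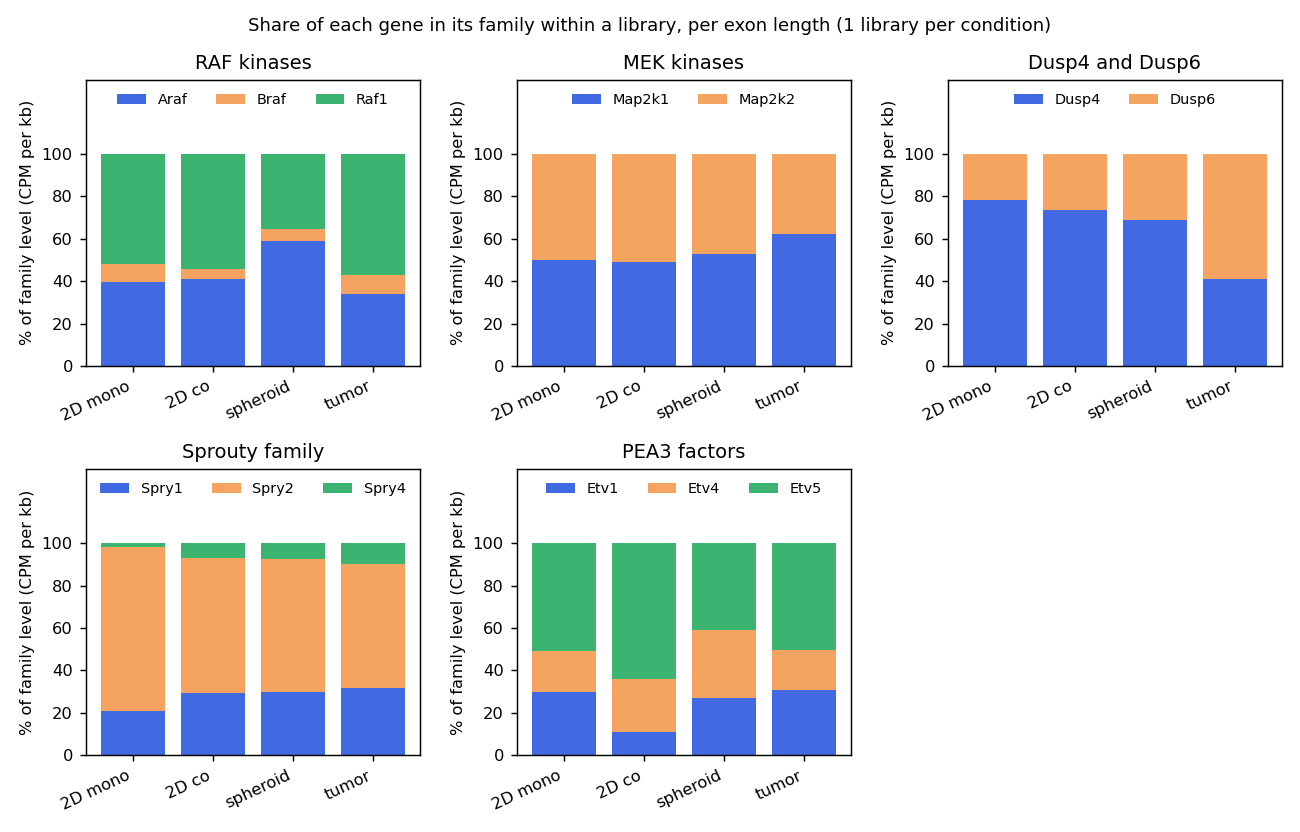
Share of each gene in the summed level of its family (percent of CPM per kilobase of exon, vertical axes) within each of the 4 libraries, for the RAF and MEK kinases, the phosphatase pair Dusp4 and Dusp6, the Sprouty genes and the PEA3 factors. Araf makes up 59.1% of the RAF level in the spheroid and at most 40.8% elsewhere, and Dusp6 outweighs Dusp4 in the tumor only. The shares are drawn without the correction for GC content.

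Dusp6 encodes a cytoplasmic phosphatase that acts selectively on ERK and is itself an ERK target gene. It was at 55.4 CPM in 2D monoculture, 123 in 2D co-culture, 153 in the spheroid and 129 in the tumor. The 3 conditions in which the melanoma cells grew with other cells lay above 2D monoculture, by 2.22-fold (2.16 to 2.28), 2.77-fold (2.70 to 2.84) and 2.32-fold (2.26 to 2.38), and close to each other. These differences stayed over 2-fold under all 6 other settings tried, GC content and length included, with log2 ratios between 1.04 and 1.59 over the 3 comparisons. The part of NIH/3T3 or host cells in the Dusp6 levels was not tested.

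Dusp4 encodes a nuclear phosphatase of ERK and of related kinases. It was measured at 194 CPM in 2D monoculture, 332 in 2D co-culture, 331 in the spheroid and 86.7 in the tumor. Spheroid and 2D co-culture were within counting error of each other at 1.71-fold the level of 2D monoculture, and the tumor was 2.24-fold below 2D monoculture and 3.82-fold below the spheroid. Neither the size of the tumor difference nor the order of the cultures was firm. The log2 ratio of tumor over 2D monoculture, -1.16, stayed below 0 under all 6 other settings, passed 2-fold under 3 of 6 other settings and came to -0.46 after the correction for GC content and length. The correction also took the log2 ratio of spheroid over tumor from 1.93 to 0.64, that of spheroid over 2D monoculture from 0.77 to 0.06 and that of spheroid over 2D co-culture from -0.004 to -0.58.

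The phosphatases therefore took opposite places in the tumor. Dusp6 made up 22.2% (21.8 to 22.6) of the reads on the pair in 2D monoculture, 27.0% (26.6 to 27.4) in 2D co-culture, 31.7% (31.3 to 32.0) in the spheroid and 59.7% (59.2 to 60.2) in the tumor. Dusp4 was the more abundant of the pair in all 3 cultures and Dusp6 in the tumor, by reads and per kilobase. Relative to Dusp4, Dusp6 was 5.20-fold higher in the tumor than in 2D monoculture, a log2 value of 2.38 that was 1.70 after the correction. The markers of host tissue given above were higher in the same library, and their part in this shift was not tested.

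Spry2, an inhibitor of receptor tyrosine kinase signalling, was at 34.9 CPM in 2D monoculture, 45.1 in 2D co-culture, 47.7 in the spheroid and 23.0 in the tumor. Its order was that of Map2k1 for the highest and the lowest library, with a span of 2.08-fold (1.99 to 2.16) between spheroid and tumor, which passed 2-fold under 4 of 6 other settings. Spry4, a family member, was read far less often: 291 reads in 2D monoculture, 1294 in 2D co-culture, 1713 in the spheroid and 1409 in the tumor, or 2.04, 11.3, 12.6 and 8.68 CPM. The 2D monoculture was the low library, and the other 3 lay 5.53-fold (4.87 to 6.31), 6.16-fold (5.44 to 7.00) and 4.25-fold (3.74 to 4.84) above it. Of the 8 genes, Spry4 had the largest ratio to 2D monoculture in the spheroid and in the tumor, and over 2-fold differences remained under all 6 other settings in all 3 libraries. Spry4 was read 0.0585 times as often as Spry2 in 2D monoculture and 0.251, 0.263 and 0.377 times as often in 2D co-culture, spheroid and tumor. The part of NIH/3T3 or host cells in the Spry4 levels was not tested.

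Spry1, another Sprouty gene, was at 13.3, 29.0, 31.8 and 17.2 CPM in 2D monoculture, 2D co-culture, spheroid and tumor. Per kilobase, Spry2 remained the main Sprouty transcript in every library, at between 58.7% and 77.0% of the summed level of Spry1, Spry2 and Spry4. Spry3 was at 0.00702, 0.533, 0.0220 and 0.222 CPM, at or under the level that 3 reads give in 2D monoculture and spheroid.

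Etv4 encodes a PEA3-type ETS transcription factor whose transcription follows ERK activity. It was the lowest of the members, with 119 reads in 2D monoculture, 541 in 2D co-culture, 190 in the spheroid and 384 in the tumor, or 0.835, 4.73, 1.40 and 2.37 CPM. The 2D co-culture was highest and 5.66-fold (4.63 to 6.96) above 2D monoculture. Unlike Dusp6 and Spry4, Etv4 was lower in the spheroid than in the 2D co-culture, by 3.39-fold, and it is the only member that was over 2-fold lower in that comparison. In the tumor the ratio to 2D monoculture was 2.83-fold (2.30 to 3.51) from the reads, but it did not pass 2-fold once 1 CPM was added to each value, as was done for every call. The added 1 CPM is more than the level of Etv4 in 2D monoculture. The ratio passed 2-fold under 5 of 6 other settings, all but that addition.

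Its relatives Etv5 and Etv1 were also read at low levels, though above Etv4 in every library. Etv5 was at 3.69 CPM in 2D monoculture, 20.2 in 2D co-culture, 2.97 in the spheroid and 10.7 in the tumor, so that 2D co-culture and tumor were above both the spheroid and 2D monoculture, as for Etv4. Etv1 was at 3.89, 6.07, 3.53 and 11.7 CPM in the same order. The libraries in which Etv4 and Etv5 were high are those with the higher fibroblast markers, 683 CPM in 2D co-culture and 3194 in the tumor against 37.4 in the spheroid. Fgfr1, a fibroblast growth factor receptor, followed the same division with 0.0562, 23.8, 0.404 and 25.3 CPM. The part of NIH/3T3 or host cells in these values was not tested.

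Each comparison was also read against the share of all genes that differed as much. A gene was called when its log2 ratio, with 1 CPM added to each value, was over 1 in size, and the background was the 12728 genes that averaged at least 1 CPM over the libraries, among which all 8 members were. For spheroid over 2D monoculture, 3 of 8 members were called and all were higher (Mapk3, Dusp6 and Spry4), while 29.1% of all genes were called, 11.2% higher and 17.9% lower. For 2D co-culture over 2D monoculture, 3 of 8 were called and all were higher (Dusp6, Spry4 and Etv4), where 13.3% of all genes were called, 3.79% higher and 9.51% lower. The count of higher members was thus 37.5% in both comparisons, above the background of either. The members were chosen with earlier results of these data known, so this is a description and not independent evidence. After the correction for GC content and length 2 members were higher in the spheroid, without Mapk3, against 9.10% of all genes, and the 3 higher in 2D co-culture were the same genes, against 4.09%.

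For tumor over 2D monoculture, 2 members were higher (Dusp6 and Spry4) and 1 lower (Dusp4), against 33.1% of all genes, 14.8% higher and 18.2% lower. The members' total of 3 in 8 is near that background. Of the 1885 genes higher in the tumor, 950 reached an average of 1 CPM through the tumor library alone, which is the case for 0 members. After the correction 3 members were higher, Etv4 beside Dusp6 and Spry4, and 0 lower, as Dusp4 was no longer called, and over all genes 1986 were higher and 752 lower. For spheroid over tumor, 3 were higher (Mapk3, Dusp4 and Spry2) and 0 lower, while 54.4% of all genes were called, 26.8% higher and 27.6% lower, a higher share than the 3 in 8 of the members. The correction again gave 3 calls, but other ones: Braf and Spry2 were higher and Etv4 lower, and Mapk3 and Dusp4 were no longer called. For spheroid over 2D co-culture, 1 was higher (Mapk3) and 1 lower (Etv4), against 18% of all genes, 9.54% higher and 8.46% lower, and of these calls that of Etv4 remained after the correction.

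The median log2 ratio of the 8 members was 0.60 for spheroid over 2D monoculture, 0.57 for 2D co-culture over 2D monoculture and -0.45 for tumor over 2D monoculture, beside medians over all genes of 0.05, 0.01 and -0.14. It was 0.69 for spheroid over tumor and 0.21 for spheroid over 2D co-culture, beside 0.08 and -0.01. Comparisons that share 2D monoculture as their base are not independent of each other. The members did not move as 1 group: in the tumor Dusp6 and Spry4 were above and Map2k1, Dusp4 and Spry2 below 2D monoculture under all 6 other settings.

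**Figure D3:**
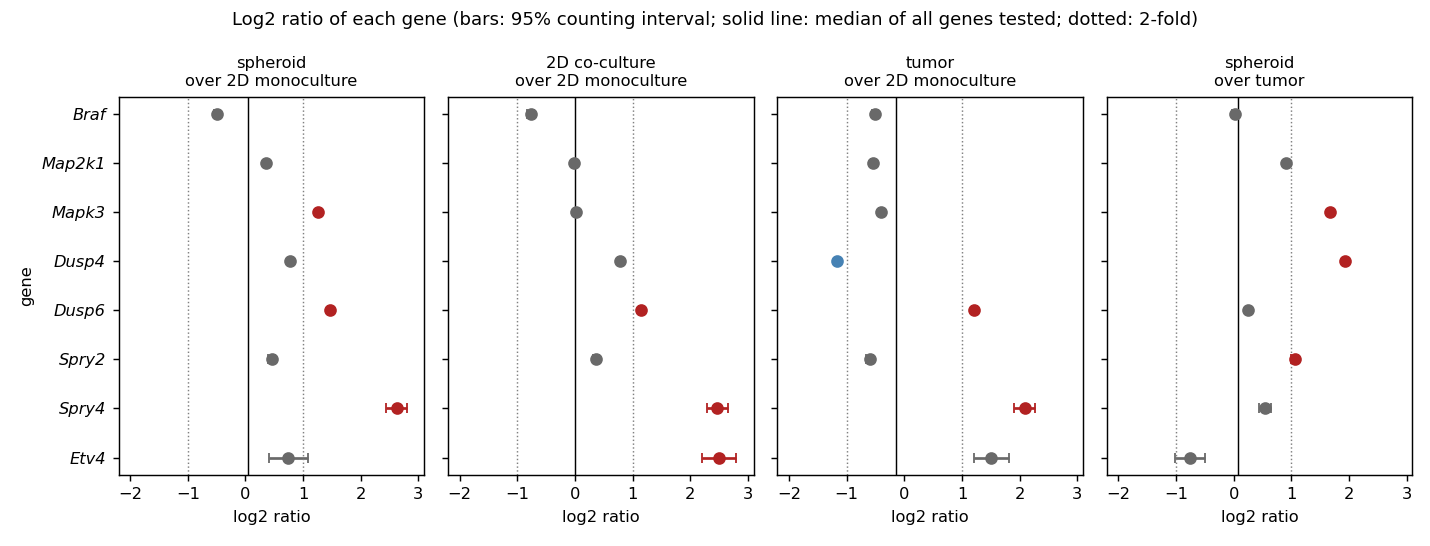
Log2 ratio of the 8 genes (horizontal axes) in 4 comparisons, each point with its 95% counting interval, red where called higher, blue where called lower and grey otherwise. The solid line is the median of the 12728 genes tested and the dotted lines mark 2-fold, and Dusp6 and Spry4 are right of the upper line in all 3 comparisons with 2D monoculture.

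The wider route was described with 9 lists of genes, also chosen with earlier results of these data known. Their counts over 2D monoculture are to be read beside the shares of all genes given above, which for higher and lower genes were 11.2% and 17.9% (spheroid), 3.79% and 9.51% (2D co-culture), and 14.8% and 18.2% (tumor). Other feedback inhibitors were further dual-specificity phosphatases, Sprouty and Spred genes, Il17rd and Errfi1. Of the 11 tested, 7, or 63.6%, were over 2-fold above 2D monoculture in the spheroid and 0 below, with a median log2 ratio of 1.24. The named ones were Dusp2, which was at 52.3 CPM in the spheroid and 14.6 in 2D monoculture, Spred3 at 59.2 and 19.5 CPM, and Dusp1 at 128 and 51.3 CPM. The ERK phosphatases Dusp5, Dusp7 and Dusp9 and the Sprouty gene Spry1 made up the rest. After the correction for GC content and length 3 of the 11, or 27.3%, were over 2-fold higher, against 9.10% of all genes, with a median of 0.86. They were Dusp2, Spred3 and Il17rd, which had not been called before. Il17rd was at 1.68 CPM in the spheroid and 1.35 in 2D monoculture, so its call rests mostly on the class median removed. Dusp1, Dusp5, Dusp7, Dusp9 and Spry1 were no longer called. In the 2D co-culture 2 of the 11 were higher (Spry1 and Dusp9) and 0 lower. After the correction neither of these was called, and 1 other gene, Il17rd at 3.21 CPM, was higher. In the tumor 1 was higher, the receptor inhibitor Errfi1 at 54.6 against 18.2 CPM, and 2 were lower, Spred2 and Spred3, but here the counts turned with the setting, to 4 higher and 0 lower after the correction.

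Among 11 other ERK target genes, 3, or 27.3%, were over 2-fold higher in the spheroid than in 2D monoculture and 0 lower. These were the immediate early genes Egr1, at 168 against 12.1 CPM, Fos, at 247 against 23.7 CPM, and Ier3, at 369 against 89.5 CPM, and all counts of this list in the spheroid were the same after the correction. In the 2D co-culture 4, or 36.4%, were higher and 0 lower: Etv5, Egr1 at 57.0 CPM, Fos at 63.2 CPM, and the growth regulator Myc at 153 against 43.3 CPM. Egr1 was thus high in both cultures with fibroblasts and was at 9.71 CPM in the tumor, below 2D monoculture. In the tumor Etv1 and Etv5 were higher and Ccnd1, Phlda1 and Ets1 lower, with the cell cycle gene Ccnd1 at 96.2 against 390 CPM. Scaling by total counts or by upper quartiles gave 4 higher and 2 lower there, and the correction for GC content and length gave 5 and 1.

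At the top of the route, 3 of 12 tested receptor tyrosine kinases were higher and 2 lower in the spheroid, while in 2D co-culture 3 were higher and 1 lower. The correction for GC content and length gave 5 higher, Egfr and Ntrk2 among them, and 0 lower in the spheroid. Egfr had 1 read in the spheroid and 3 in 2D monoculture, and Ntrk2 had 2 and 0. The calls of Egfr and Ntrk2 in the spheroid thus come from the class medians removed and not from their reads. In 2D co-culture the correction gave 4 higher and 1 lower. Egfr, Kit, Mertk and Ntrk2 averaged at least 1 CPM only through the tumor library and were at most 1.31 CPM in any culture, so that their place on the high side there followed from that limit. Of the other 8 receptors Axl and Fgfr1 were higher and Erbb2 and Erbb3 lower in the tumor. After the correction 0 receptors were lower in the tumor, and Epha2 was also higher. Met, the receptor for hepatocyte growth factor, was at 652 CPM in 2D monoculture, 167 in 2D co-culture, 172 in the spheroid and 920 in the tumor. Both cultures with fibroblasts were thus low, but after the correction Met was still called lower in 2D co-culture and not in the spheroid. Axl, a receptor linked to dedifferentiated melanoma states, was at 18.2, 56.0, 74.0 and 65.3 CPM, with 2D monoculture lowest as for Dusp6 and Spry4. Of 6 ligand genes tested, 1 was higher and 1 lower in the spheroid, while in 2D co-culture 1 was higher and 0 lower. Igf1, at 42.7 CPM in the tumor and at most 0.349 CPM in the cultures, and Egf were tested through the tumor level alone. Of the other 4 Kitl and Pdgfb were higher and Pdgfa lower in the tumor, and after the correction Pdgfa was no longer called. Of 6 RAS genes, Rras was higher in the spheroid, at 180 against 50.2 CPM, and lower in the 2D co-culture, at 21.7 CPM. Mras was lower in the tumor, at 15.0 against 33.4 CPM, a call that was lost after the correction. Among 14 adaptors and RAS regulators, 4 were lower in the spheroid and 0 higher, 3 were lower and 0 higher in the 2D co-culture, and 4 were lower and 1 higher in the tumor, with the phosphatase gene Ptpn11, an activator of RAS signalling, at 55.3 CPM in the spheroid against 247 in 2D monoculture.

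The 9 other cascade kinases and scaffolds tested held 1 higher and 1 lower gene in the spheroid. The lower was the scaffold gene Iqgap1 at 30.8 against 248 CPM, and the higher was Lamtor2, part of a MEK scaffold on late endosomes, at 333 against 150.2 CPM, a log2 ratio that came to 0.63 after the correction. In the 2D co-culture 0 were higher and 1 lower, and in the tumor 1 was higher and 1, Map2k2, lower. After the correction the 1 lower in the tumor was Araf and not Map2k2. Of the 7 kinases under ERK, 1 was higher and 1 lower in the spheroid, 0 higher and 1 lower in the 2D co-culture, and 0 were called in either direction in the tumor. With 1 gene being 11.1% of the cascade list and 14.3% of the kinases under ERK, these counts are near those of all genes. In the list of the parallel JNK and p38 route, 2 of 13 were higher and 1 lower in the spheroid, 1 was higher and 0 lower in the 2D co-culture, and 1 was higher and 5 lower in the tumor. Its phosphatase gene Dusp8 was at 38.4 CPM in 2D monoculture, 26.1 in 2D co-culture, 160 in the spheroid and 3.95 in the tumor. The correction for GC content and length changed several of these counts: to 0 higher and 1 lower cascade gene in the spheroid, to 1 lower adaptor or RAS regulator in each of the 3 comparisons, and to 0 higher and 4 lower genes of the JNK and p38 list in the tumor. The plot of the lists, drawn without the correction, shows the feedback inhibitors gathered on the high side in the spheroid.

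**Figure D4:**
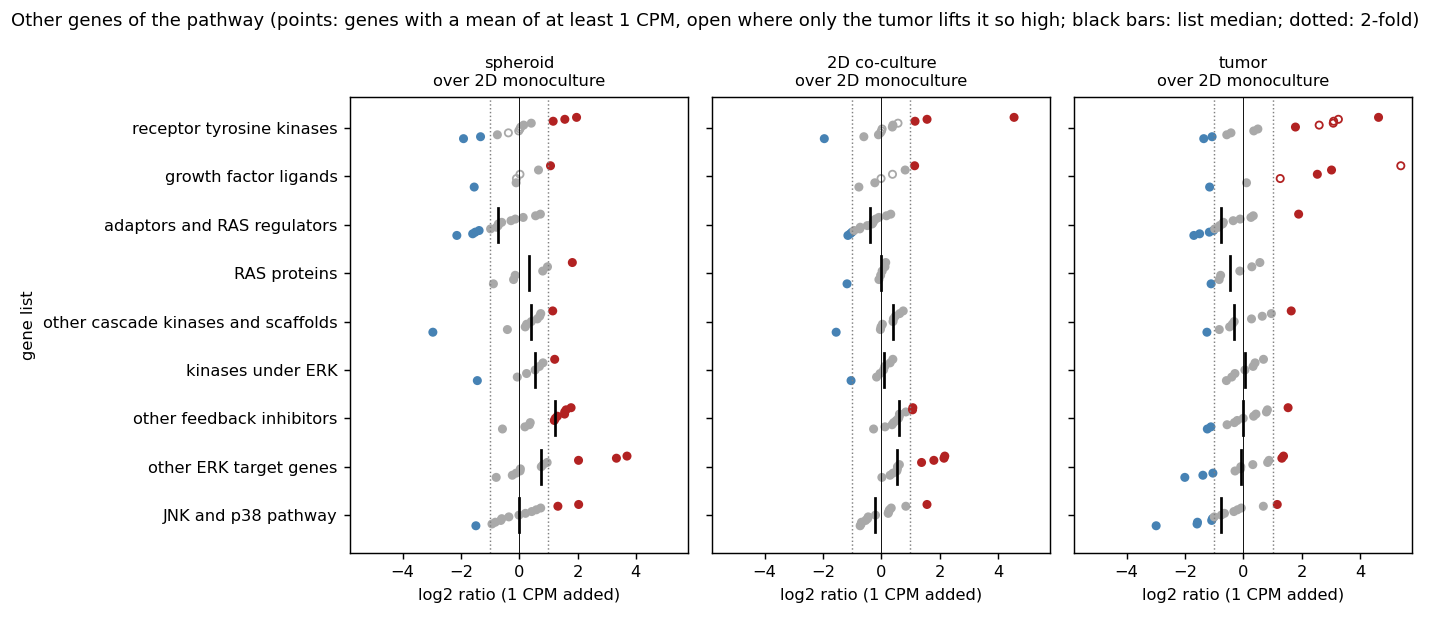
Log2 ratio with 1 CPM added (horizontal axes) of each tested gene of the 9 other pathway lists in the spheroid, 2D co-culture and tumor over 2D monoculture, red and blue where over 2-fold higher and lower, with a black bar for the median of lists without open points, which mark the 4 receptors and 2 ligands that average 1 CPM only through the tumor. The median of the other feedback inhibitors is 1.24 in the spheroid.

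Over the 4 libraries the members had few close counterparts among themselves. The smallest root mean square difference of centred log2 levels between members was 0.16 for Map2k1 and Spry2, followed by 0.33 for Dusp6 and Spry4. Among genes averaging 10 CPM or more, of which 9587 or 9588 were compared, the nearest patterns to Dusp6 were those of Ostc (0.09) and Nemp2 (0.10), and the nearest to Spry4 those of Axl (0.21) and Adam19 (0.24). Mapk3 was nearest to Ube2e2 (0.03) and Rnf167 (0.03), Dusp4 to Lrfn4 and Ppan, Braf to Cep19 and Zfp704, Map2k1 to Smug1 and Saraf, Spry2 to Gnb1l and Abhd11, and Etv4 to Cenpw and Dut. With 4 libraries, such likeness is a description of these values.

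How far the members' ratios depended on the scaling and on the composition of the transcripts is shown gene by gene in the plot of settings. Spearman's correlation across 12466 genes between GC content and log2 ratio was 0.46 for spheroid over 2D monoculture, 0.20 for 2D co-culture over 2D monoculture, -0.38 for tumor over 2D monoculture and 0.52 for spheroid over tumor, with genes of a library sharing its preparation. Dusp6 and Spry4 stayed over 2-fold above 2D monoculture under all 6 settings. Braf, at 42.6% GC, and Mapk3 and Dusp4, at 57.6% and 56.0%, were the genes whose ratios of spheroid over tumor moved most with the correction, together with Etv4 at 58.7%, whose log2 ratio went from -0.76 to -2.30.

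**Figure D5:**
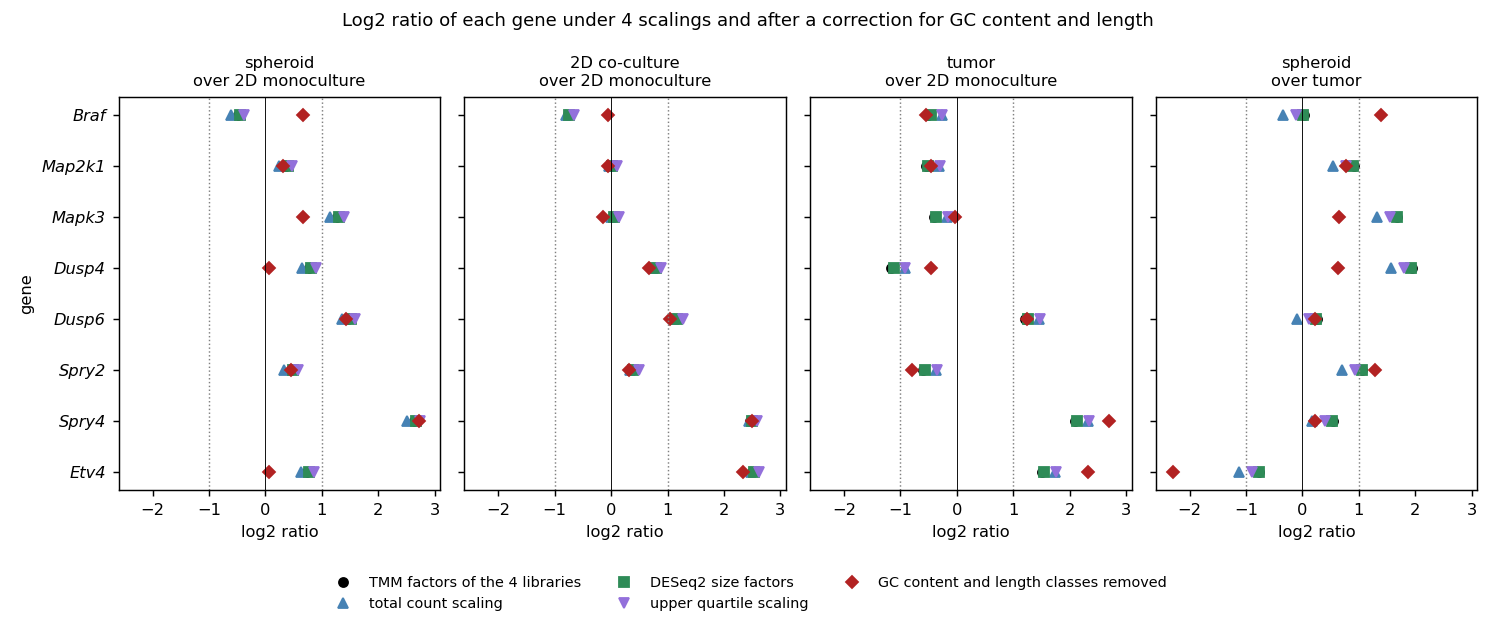
Log2 ratio (horizontal axes) of the 8 genes in 4 comparisons under TMM, total count, DESeq2 and upper quartile scaling and after the medians of GC content and length classes were removed. The corrected value lies apart for Braf, Mapk3, Dusp4 and Etv4, in particular in spheroid over tumor.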

How the data were processed

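RNA of B16F10 cells from 4 conditions, 1 library each, was enriched for polyadenylated transcripts and sequenced in pairs. The authors deposited raw read counts for each gene symbol, whole numbers without normalization, in 1 table. Per the submitters' processing notes the tools were Trimmomatic, STAR and featureCounts on mm10, with versions not given in the sources used here. Columns of other samples numbered 0. The columns were matched to conditions by their labels.

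CPM values were computed with TMM factors (edgeR 4.0.16, R 4.3.3). Intervals of CPM and of shares are exact Clopper-Pearson intervals, and those of ratios follow from the exact interval of a binomial share of reads between both libraries, all at 95%. Ratios of single genes use no pseudocount, and calls, medians and lists use 1 CPM. Depths of 118896900 to 150028663 reads put the level of 3 reads, which a count of 0 allows, at 0.0185 to 0.0262 CPM. Alternatives were total counts, upper quartiles, DESeq2 1.42.0 size factors, TMM of 2 libraries, other pseudocounts, and a correction for GC content and length. The correction removed the median ratio in 10 by 10 classes of GC content and length of the longest transcript (GENCODE M21, GRCm38, values for 97.9% of tested genes). Python 3.11.15, numpy 2.4.6, pandas 2.3.3, scipy 1.17.1 and matplotlib 3.10.9 were used. The scaling and calls were checked on counts simulated from the 2D monoculture profile, with 200 genes changed 4-fold in 1 library. The simulated counts held no GC bias, no RNA of other cells and no variation between cultures, so the check does not cover these.

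The members and lists were chosen with earlier results of these data known. Named genes are the members, their paralogs, up to 3 higher and 3 lower genes of a list with a mean of at least 10 CPM, the 2 nearest patterns of each member and the top marker of a cell type in the tumor. Values outside that rule complete a gene or a count. They are those of Egr1, Fos, Dusp8, Met, Axl, Fgfr1 and Igf1 in libraries beside the comparison named. The calls of Dusp9, Spred2, Il17rd and the receptors and ligands are outside it too, as are the levels of Il17rd and the reads of Egfr and Ntrk2. A gene of the route is not reported here. No test was made.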

Additional observations from a re-analysis of the deposited data

How the results depend on the processing

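No paired analysis was possible because there is a single library per condition. The count of members past 2-fold was within 1.5 times its value in 42 of 45 alternatives. The exceptions were 5 members for 2D co-culture over 2D monoculture at a threshold of 1.5-fold, and 1 member for spheroid over 2D co-culture both with 5 CPM added and after the correction for GC content and length, where the cause was not tested. An equal count did not always mean the same members, as for spheroid over tumor after that correction. The margin of 1.5 times is wide for such small counts, as a change from 3 members to 2 or to 4 was taken as within it. All 35 alternative medians of the members moved by less than 1.5-fold. That margin is wider than some of the medians themselves, such as the log2 value of 0.21 for spheroid over 2D co-culture. Of 240 alternative ratios of single members, 126 were within the counting interval and 114 outside it. The share of all genes past 2-fold was 19.0% and 12.0% for spheroid over 2D monoculture and over 2D co-culture when every gene with a read was included. The pathway lists and the changes between related genes under other settings were chosen after seeing the data. Against TMM, scaling by total counts shifted all log2 ratios by -0.36 for spheroid over tumor, by 0.24 for tumor over 2D monoculture and by -0.12 for spheroid over 2D monoculture, and upper quartiles by 0.25 for tumor over 2D monoculture. With 1 library per condition the variation between cultures or animals is unknown, and Etv4 and Spry4 in 2D monoculture rest on 119 and 291 reads.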
